A study of Mus musculus with 30 samples.

Results

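Interferon signalling was followed from receptor to target genes through 9 mouse genes, taken by their symbols from a table of 49315 genes. They were the receptor chain genes Ifngr1, Ifngr2, Ifnar1 and Ifnar2, the kinase genes Jak1 and Jak2, the transcription factor genes Stat2 and Irf1, and the feedback inhibitor gene Socs1. All 9 were among the 17774 genes with enough counts to be tested, and each had at least 301 counts in every library. Messenger RNA was sequenced from 4T1-tdTomato cells, a mammary carcinoma line of BALB/c origin marked with a red fluorescent protein, after growth in female mice. BALB/c mice have an intact immune system, whereas NSG mice lack T, B and NK cells and keep neutrophils and macrophages. Live cells negative for the leukocyte surface protein CD45 and positive for tdTomato were sorted, and 5 libraries were made for each of 6 groups. BALB/c tumours were taken on days 21 and 22 and NSG tumours on day 10, after 200000 cells had been placed in the mammary fat pad. The other 4 groups came from lungs of mice given 500000 cells by tail vein. BALB/c DTC and NSG DTC, an abbreviation that the labels leave unexpanded, were taken on day 7, BALB/c macro-mets on days 21 and 23, and NSG macro-mets on days 19 and 20. Fat pad and lung samples differ in organ, route and number of cells at once, and tumours and macro-mets were taken on other days in BALB/c than in NSG, so these cannot be told apart from stage or host. The labels give neither batch nor pairing, nor whether libraries came from separate animals, so the p-values measure the spread between these libraries only.

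Interferon gamma, made chiefly by T and NK cells, binds a receptor of Ifngr1 and Ifngr2 chains, to which the kinases Jak1 and Jak2 are attached. Type I interferons bind Ifnar1 and Ifnar2 chains, which carry Tyk2 and Jak1, and activate a complex that contains Stat2 and Irf9. Irf1 is a transcription factor induced by interferon gamma and by inflammatory signals, and Socs1 binds JAK kinases and shuts the signal off. STAT dimers recognise the gamma-activated site (GAS), whereas IRF proteins and the Stat2 complex recognise the interferon-stimulated response element (ISRE).

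Total counts ran between 29832098 and 65621525 per library. The summed level of 5 epithelial markers was between 4002 and 8453 CPM (counts scaled to a common library total, with factors from the trimmed mean of M-values), and Ptprc, which encodes CD45, was between 0.0369 and 6.62 CPM. The 28 leukocyte markers summed to 17.0 to 119 CPM in BALB/c tumours, 37.5 to 705 CPM in DTC of that host and 28.4 to 67.9 CPM in BALB/c macro-mets, against 17.9 to 36.1 CPM in NSG tumours, 34.5 to 83.9 CPM in NSG DTC and 41.5 to 72.2 CPM in NSG macro-mets. Of these markers, none was at 0 in every library of BALB/c DTC or BALB/c macro-mets, 2 were in BALB/c tumours, 6 in NSG tumours and in NSG DTC, and 5 in NSG macro-mets. BALB/c DTC replicates 1 and 2 stood apart by their lung epithelium markers, which summed to 68.1 to 3329 CPM in BALB/c DTC, 17.3 to 50.7 CPM in NSG DTC and at most 2.78 CPM in tumours. In macro-mets these markers summed to 5.26 to 64.4 CPM in BALB/c and 9.29 to 32.8 CPM in NSG. A further 4 libraries had fewer genes at 10 or more counts than the rest: BALB/c DTC replicate 3, BALB/c macro-met replicate 3, NSG tumour replicate 1 and NSG macro-met replicate 4. Levels in bulk RNA cannot tell fewer cells of a type apart from less RNA per cell.

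The genes lie at 7 places in GRCm38. Ifnar2 (chr16:91372783-91405589), Ifnar1 (chr16:91485238-91507441) and Ifngr2 (chr16:91547072-91565623) sit side by side on the plus strand within 192.8 kb. Ifngr1 lies at chr10:19591949-19610229, Stat2 at chr10:128270559-128292849, Irf1 at chr11:53770014-53778374 and Jak2 at chr19:29251828-29313080, all on the plus strand. Jak1 (chr4:101152367-101265282) and Socs1 (chr16:10782240-10785536) are on the minus strand. RefSeq gave 10 start windows for the 9 genes, and the 250 bases before each start were searched on both strands for the GAS letters TTCNNNGAA and the ISRE core GAAANNGAAA. GAS letters occurred before 2 of the 9 genes (Irf1 and Ifnar2) and before 7.02% of all 32851 windows, and ISRE letters before 2 of the 9 (Stat2 and Socs1) and 2.98% of windows. The windows of the signalling genes that changed are shown with that of Ifngr1, which passed in 0 of the 11 comparisons. They are from RefSeq on GRCm38.p6, 5′ to 3′ on the gene's strand and ending at the base before the start, with the motif letters in capitals.
Irf1 (chr11:53769764-53770013, plus): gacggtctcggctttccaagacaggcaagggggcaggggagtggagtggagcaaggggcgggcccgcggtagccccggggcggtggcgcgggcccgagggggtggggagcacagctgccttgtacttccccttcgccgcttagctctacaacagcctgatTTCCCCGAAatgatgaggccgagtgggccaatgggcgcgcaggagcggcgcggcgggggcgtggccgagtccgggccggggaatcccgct
Socs1 (chr16:10785537-10785786, minus): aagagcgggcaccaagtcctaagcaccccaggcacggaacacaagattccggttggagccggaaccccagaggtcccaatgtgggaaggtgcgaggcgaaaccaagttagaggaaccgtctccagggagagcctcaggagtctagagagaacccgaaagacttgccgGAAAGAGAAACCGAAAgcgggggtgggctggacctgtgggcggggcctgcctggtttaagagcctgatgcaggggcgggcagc
Stat2 (chr10:128270248-128270497, plus): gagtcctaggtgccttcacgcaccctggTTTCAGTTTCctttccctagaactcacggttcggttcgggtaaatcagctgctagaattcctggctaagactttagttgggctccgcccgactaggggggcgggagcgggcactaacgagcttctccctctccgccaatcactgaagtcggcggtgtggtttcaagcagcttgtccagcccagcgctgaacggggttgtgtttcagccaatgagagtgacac
Ifngr1 (chr10:19591699-19591948, plus): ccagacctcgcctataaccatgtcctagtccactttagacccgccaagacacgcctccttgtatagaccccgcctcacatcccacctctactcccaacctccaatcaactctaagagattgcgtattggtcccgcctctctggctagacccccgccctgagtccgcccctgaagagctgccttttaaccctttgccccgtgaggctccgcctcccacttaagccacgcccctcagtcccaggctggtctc
The Irf1 window holds 1 GAS match 90 bases before the start, and the Socs1 window holds 2 overlapping ISRE cores, 83 and 77 bases before it. In the Stat2 window the single ISRE core reads on the opposite strand, 222 bases before the start. The second Irf1 window, and those of Ifngr2, Ifnar1, Jak1 and Jak2, held neither set of letters.

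Receptor genes and Jak1 spanned a narrower range of group means than Irf1, Stat2, Socs1 and Jak2, although Ifnar1 and Ifnar2 passed the test in several comparisons. The ratio of the highest to the lowest group mean was 1.24 for Ifngr1, 1.41 for Ifngr2, 1.52 for Ifnar1, 1.61 for Ifnar2 and 1.65 for Jak1. It was 2.55 for Irf1, 3.73 for Stat2, 6.75 for Socs1 and 9.84 for Jak2. The median ratio was 1.84 over the 11249 tested genes whose mean exceeded 1 CPM in every group. Of these genes, 2.94% had a smaller ratio than Ifngr1 and 35.5% a smaller one than Jak1, whereas 75.0% lay below Irf1, 87.4% below Stat2, 95.3% below Socs1 and 97.6% below Jak2. Over the 11 comparisons fitted (9 between groups and 2 of host differences between stages), Ifngr1 passed the test in 0, Ifngr2 in 1, Ifnar2 in 4, Ifnar1 and Jak1 in 6 each, Stat2 in 6, Irf1 in 8, Jak2 in 9 and Socs1 in 10.

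**Figure D1:**
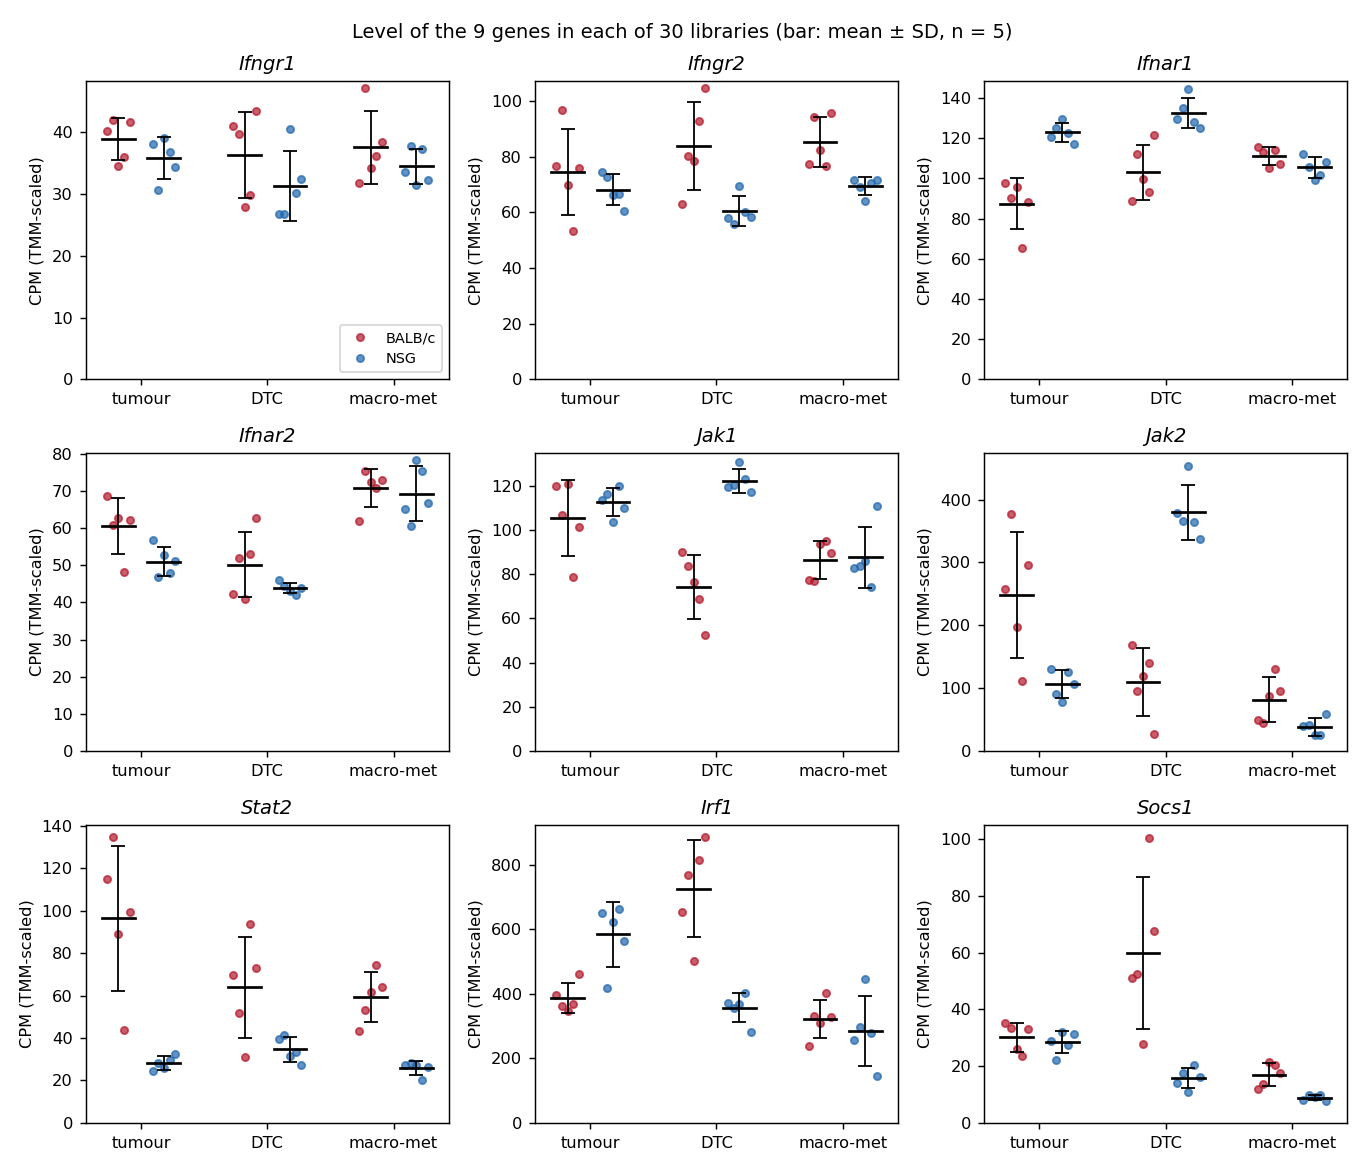
Level in CPM (linear axis from 0, scaled by the trimmed mean of M-values) of the 9 genes in each of 30 libraries, BALB/c in red and NSG in blue, with a bar at the mean and whiskers of 1 SD (n = 5). Ifngr1 stayed between 26.7 and 47.2 CPM in all libraries, whereas Jak2 ran from 25.1 to 453 CPM.

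Between hosts, the genes that differed changed with the stage. At an adjusted p under 0.05 (edgeR quasi-likelihood test, Benjamini-Hochberg over all genes tested), 4 of the 9 genes passed in BALB/c tumours against NSG tumours, where 23.6% of all genes passed. In BALB/c DTC against NSG DTC 7 passed, beside 38.8% of all genes, and in BALB/c macro-mets against NSG macro-mets 2 passed, beside 2.64% of all genes. Stat2 was higher in BALB/c at all 3 stages. Socs1 was higher in BALB/c DTC and BALB/c macro-mets, Irf1 was higher in BALB/c DTC and lower in BALB/c tumours, and Jak2 was higher in BALB/c tumours and lower in BALB/c DTC.

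**Figure D2:**
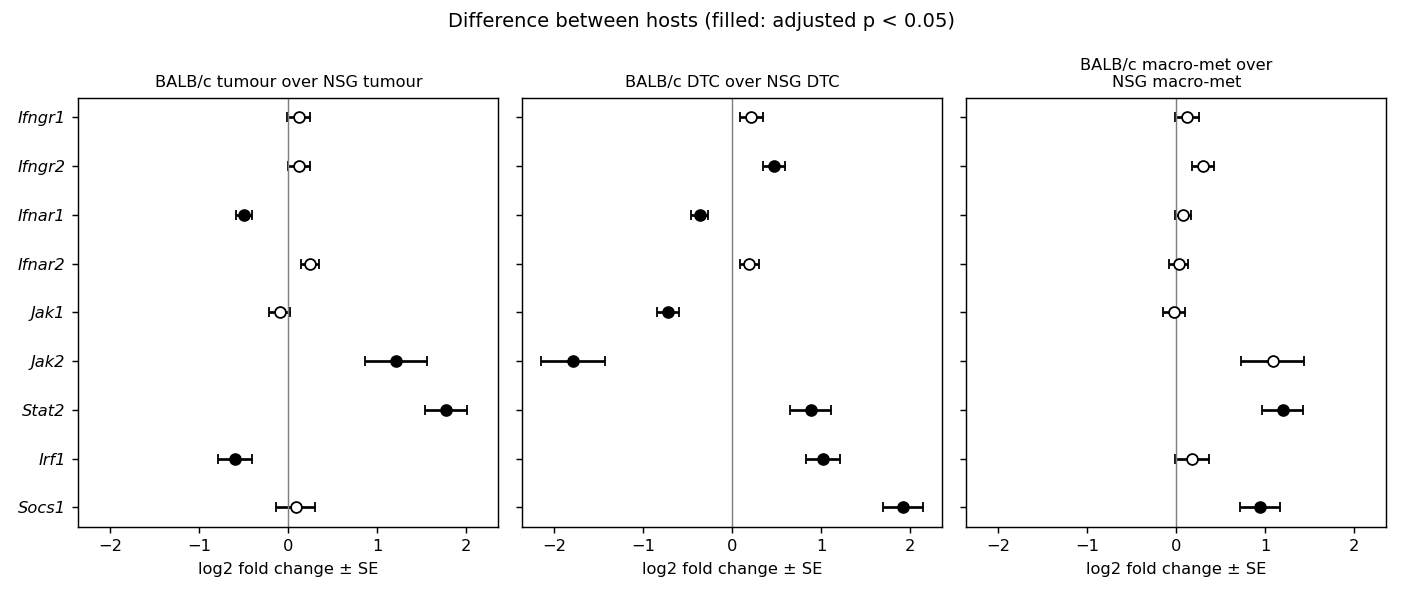
Log2 fold change of BALB/c over NSG (horizontal axis, whiskers of 1 SE derived from the test) for the 9 genes in tumours, DTC and macro-mets, filled where the adjusted p was under 0.05. Stat2 lies to the right in all 3 panels (1.77, 0.88 and 1.20), and Jak2 lies right of 0 in tumours (1.21) and left of it in DTC (-1.78).

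Ifngr1, the ligand-binding chain of the interferon gamma receptor, ran between 26.7 and 47.2 CPM over the 30 libraries. Its group means were ordered BALB/c tumour (38.9 CPM), BALB/c macro-met (37.6), BALB/c DTC (36.4), NSG tumour (35.8), NSG macro-met (34.5) and NSG DTC (31.3), and every neighbouring pair overlapped. The 95% interval of its BALB/c over NSG log2 fold change was -0.14 to 0.37 in tumours, -0.04 to 0.47 in DTC and -0.13 to 0.38 in macro-mets. These intervals leave room for a difference of up to about that size and are no proof of equal levels. Ifngr1 was called in DTC without NSG DTC replicate 3 (0.34, adjusted p = 0.0325), and in NSG DTC against NSG tumours with GC and length offsets (-0.35, adjusted p = 0.0292).

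Ifngr2, the second chain of that receptor, averaged 85.4 CPM in BALB/c macro-mets, 83.9 CPM in BALB/c DTC and 74.5 CPM in BALB/c tumours, against 69.4 in NSG macro-mets, 68.2 in NSG tumours and 60.4 CPM in NSG DTC. The 3 BALB/c means were the highest, and neighbours in the order overlapped. In macro-mets the hosts did not overlap, with 76.8 to 95.8 CPM in BALB/c against 64.1 to 71.8 CPM in NSG, but the difference missed the threshold (log2 fold change 0.30 ± 0.12 SE, adjusted p = 0.222) except with only the compared groups (adjusted p = 0.044). The DTC difference passed the test, with 62.9, 80.2, 78.4, 93.0 and 104.7 CPM in BALB/c DTC against 57.9, 55.9, 69.6, 60.2 and 58.5 CPM in NSG DTC (log2 fold change 0.47 ± 0.12 SE, adjusted p = 0.0025). That call was lost on the authors' TPM scale, which scales counts by transcript length and library total. The difference there was 0.21 as log2(TPM + 1). On that scale the median over all genes in BALB/c DTC against NSG DTC was -0.15, against -0.007 in the main fit.

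Ifnar1, a signalling chain of the type I receptor, was lower in BALB/c than in NSG in tumours and in DTC. It stood at 65.5 to 97.6 CPM in BALB/c tumours, against 117 to 129.7 CPM in NSG tumours, with no overlap (log2 fold change -0.49 ± 0.09 SE, adjusted p = 0.000178). In DTC it stood at 88.9 to 121 CPM in BALB/c, against 125 to 145 CPM in NSG, again with no overlap (-0.36 ± 0.09, adjusted p = 0.00184). In macro-mets it averaged 111 ± 4.50 CPM in BALB/c and 105.5 ± 5.11 CPM in NSG (SD, n = 5 each), and the groups overlapped (0.07 ± 0.09, adjusted p = 0.757). The host difference changed between DTC and macro-mets by 0.44 ± 0.13 (adjusted p = 0.011). The DTC difference was -0.61 as log2(TPM + 1) and -0.21 with an offset per library for GC content and length, where it was not called (adjusted p = 0.126). The change between stages lost its call with these offsets, as also with no low-count filter and with the lung marker covariate.

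Ifnar2, the other type I receptor chain, was higher in macro-mets than in DTC in both hosts. Macro-mets had the highest means, 70.7 CPM in BALB/c and 69.3 CPM in NSG, and DTC the lowest in each host, 50.2 CPM in BALB/c and 43.9 CPM in NSG. NSG macro-mets held 60.7 to 78.4 CPM, against 42.1 to 46.0 CPM in NSG DTC, with no overlap (log2 fold change 0.66 ± 0.11 SE, adjusted p = 7.4e-06). BALB/c macro-mets held 62.0 to 75.4 CPM, against 41.0 to 62.7 CPM in BALB/c DTC, and overlapped in the lowest and highest libraries (0.49 ± 0.11, adjusted p = 0.00061). Its BALB/c over NSG log2 fold change missed the threshold at every stage, at 0.25, 0.19 and 0.03 in tumours, DTC and macro-mets. The tumour difference was called by DESeq2 (0.27, adjusted p = 0.0444) and without BALB/c tumour replicate 4 (0.32, adjusted p = 0.0247).

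Jak1, the kinase that both receptor types use, differed between hosts in DTC. It stood at 89.9, 83.5, 76.5, 68.7 and 52.4 CPM in BALB/c DTC, against 119, 120.3, 131, 123 and 117 CPM in NSG DTC. Every BALB/c DTC library lay below every NSG DTC library (log2 fold change -0.72 ± 0.12 SE, adjusted p = 2.46e-05). In tumours it averaged 105.5 ± 17.2 CPM in BALB/c and 113 ± 6.30 CPM in NSG, and in macro-mets 86.5 ± 8.78 CPM in BALB/c and 87.7 ± 13.8 CPM in NSG (SD, n = 5 each). Neither of these differences passed the test (log2 fold changes -0.09 and -0.02), and in both stages the hosts overlapped.

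Jak2, the kinase attached to Ifngr2, had the largest ratio of highest to lowest library of the 9 genes, at 18.1. In BALB/c it stood at 257, 377, 198, 111 and 296 CPM in tumours, 169, 95.0, 120.1, 140.1 and 27.4 CPM in DTC and 49.4, 45.2, 87.5, 131 and 96.2 CPM in macro-mets. In NSG it stood at 130.5, 91.3, 78.6, 126 and 107 CPM in tumours, 378, 366, 453, 364 and 337 CPM in DTC and 40.6, 42.3, 25.8, 25.1 and 59.1 CPM in macro-mets. BALB/c levels were thus highest in tumours, whereas NSG levels were highest in DTC, where all 5 libraries lay above every BALB/c DTC library.

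The Jak2 host difference had opposite signs in tumours and in DTC. It was higher in BALB/c tumours than in NSG tumours (log2 fold change 1.21 ± 0.35 SE, adjusted p = 0.0124), with overlap through BALB/c tumour replicate 4, and lower in BALB/c DTC than in NSG DTC (-1.78 ± 0.36, adjusted p = 0.000207). In macro-mets the difference was 1.09 ± 0.35 and missed the threshold (adjusted p = 0.102), although DESeq2 called it. Between stages, the host difference was lower in DTC than in tumours (-3.00 ± 0.50, adjusted p = 4.6e-05) and higher in macro-mets than in DTC (2.87 ± 0.50, adjusted p = 0.000174). Under the alternatives these 2 values ran from -3.412 to -2.218 and from 2.183 to 3.325, and both stayed called.

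GC content moved with Jak2. Its transcript has 44.2% GC, and 18.2% of the tested genes with an annotated length have less. The rank correlation, across genes, between GC content and each library's log2 CPM relative to the average library was -0.613 to -0.328 in NSG DTC, against -0.101 to 0.455 in BALB/c DTC. With offsets for GC content and length the DTC difference of Jak2 was -1.24 (adjusted p = 0.00191) and that of Jak1 was -0.49 (adjusted p = 0.00123). Socs1, with 58.7% GC, lies above 92.8% of those genes, and its DTC difference with the offsets was 1.41 (adjusted p = 5.54e-06).

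Per transcript length, the order of the 2 kinase genes changed between groups. On the authors' TPM scale Jak2 exceeded Jak1 in 5 of 5 libraries of BALB/c tumours, NSG tumours and NSG DTC, in 4 of 5 BALB/c DTC libraries, in 3 of 5 BALB/c macro-mets and in 0 of 5 NSG macro-mets. NSG DTC held 193 to 270.1 TPM of Jak2 beside 46.6 to 55.0 TPM of Jak1. NSG macro-mets held 12.6 to 32.7 TPM of Jak2 beside 26.1 to 42.8 TPM of Jak1.

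**Figure D3:**
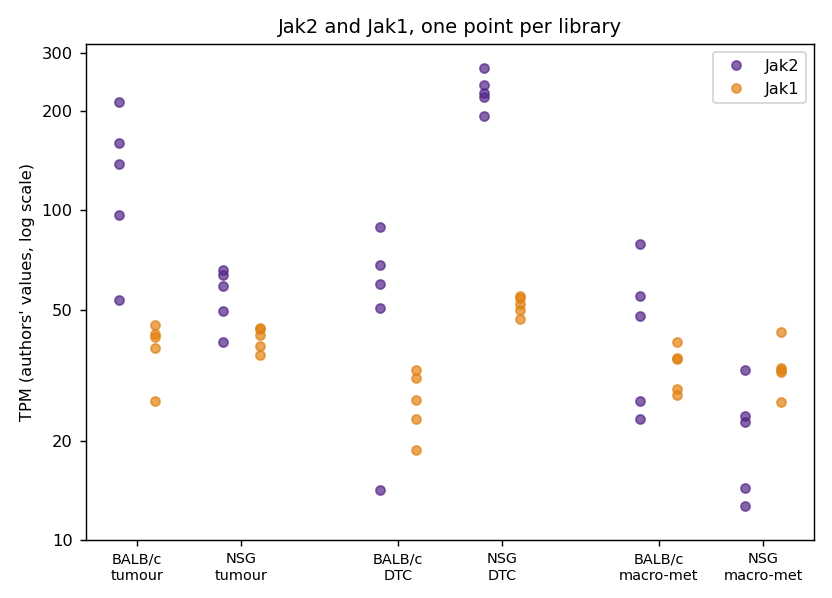
Jak2 (purple) and Jak1 (orange) in TPM as deposited by the authors, on a log axis, 1 point for each of 5 libraries in 6 groups. Jak2 lies far above Jak1 in NSG DTC (193 to 270.1 against 46.6 to 55.0 TPM) and below it in each NSG macro-met library.

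Stat2, the STAT protein of the type I interferon complex, was higher in BALB/c at each stage. In tumours it stood at 115, 135, 88.9, 43.9 and 99.6 CPM in BALB/c, against 24.4, 28.4, 26.0, 29.8 and 32.5 CPM in NSG. No libraries overlapped, and BALB/c tumour replicate 4 was the lowest of its group (log2 fold change 1.77 ± 0.23 SE, adjusted p = 1.79e-06, a 3.42-fold difference). In DTC it stood at 69.9, 51.9, 30.9, 93.8 and 72.9 CPM in BALB/c, against 39.6, 41.3, 31.3, 33.4 and 27.5 CPM in NSG. BALB/c DTC replicate 3, 1 of the libraries with few genes, fell inside the NSG range (0.88 ± 0.23, adjusted p = 0.00261). In macro-mets it stood at 43.2, 53.0, 61.6, 74.4 and 64.3 CPM in BALB/c, against 27.3, 28.2, 27.5, 20.1 and 26.2 CPM in NSG, with no overlap (1.20 ± 0.23, adjusted p = 0.00215). The DTC difference was 0.54 as log2(TPM + 1), which missed the threshold (adjusted p = 0.0997).

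Within BALB/c, Stat2 fell in DTC relative to tumours (log2 fold change -0.59 ± 0.23 SE, adjusted p = 0.037) and in macro-mets relative to tumours (-0.70 ± 0.23, adjusted p = 0.0163). The 3 NSG groups held 20.1 to 41.3 CPM, and none of the 3 differences between NSG stages passed the test. The host difference was smaller in DTC than in tumours by 0.89 on the log2 scale (-0.89 ± 0.32, adjusted p = 0.0329). Each of the 3 calls on stage was lost when single libraries were left out, among them BALB/c tumour replicate 2 for all 3. Under the other alternatives, the DTC fall was lost in 7 of 12, among them the fit without the 2 lung-rich libraries (-0.55, adjusted p = 0.112). The macro-met fall was lost in 2 of 11, both on the TPM scale, and the change in host difference in 4 of 12.

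Irf1 went in opposite directions in the 2 hosts between tumours and DTC. In BALB/c it stood at 398, 361, 348, 367 and 462 CPM in tumours, 652, 769, 503, 815 and 887 CPM in DTC and 239, 331, 309.6, 401 and 328 CPM in macro-mets. In NSG it stood at 651, 418, 623, 663 and 564 CPM in tumours, 373, 357, 368, 402 and 282 CPM in DTC and 258, 297, 446, 279 and 145 CPM in macro-mets. DTC libraries were the highest of all in BALB/c, each above every BALB/c tumour, whereas in NSG each DTC library lay below every tumour.

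Irf1 rose in BALB/c DTC relative to BALB/c tumours (log2 fold change 0.91 ± 0.19 SE, adjusted p = 0.000372) and fell in NSG DTC relative to NSG tumours (-0.71 ± 0.19, adjusted p = 0.00623). The difference between these changes was 1.62 ± 0.27 (adjusted p = 3.88e-05), and it kept its call under every alternative tried, with values between 1.33 and 1.72. Between hosts, Irf1 was 2.03-fold higher in BALB/c DTC than in NSG DTC with no overlap (1.02 ± 0.19, adjusted p = 8.27e-05). In tumours it was lower in BALB/c than in NSG, with overlap (-0.59 ± 0.19, adjusted p = 0.0231). This tumour call was lost without BALB/c tumour replicate 2 or 3 (-0.57 and -0.56), NSG tumour replicate 1 or 4 (-0.55 and -0.54), the 4 gene-poor libraries (-0.55) or the low-count filter, and the NSG fall was lost as log2(TPM + 1) (-0.48, adjusted p = 0.0711) and as log2(TPM + 0.1). In macro-mets the difference was 0.18 ± 0.19 (adjusted p = 0.715).

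Socs1, the inhibitor of JAK kinases, showed the same order of stages as Irf1 in BALB/c. In BALB/c it stood at 35.1, 33.3, 25.9, 23.5 and 33.1 CPM in tumours, 51.0, 52.4, 27.9, 100.5 and 67.6 CPM in DTC and 12.1, 13.7, 21.6, 20.6 and 17.5 CPM in macro-mets. In NSG it stood at 28.9, 22.2, 32.0, 27.6 and 31.5 CPM in tumours, 13.9, 17.6, 10.8, 20.4 and 16.1 CPM in DTC and 8.13, 9.66, 9.24, 9.66 and 7.62 CPM in macro-mets. All but 1 BALB/c DTC library, replicate 3, stood above every tumour, and the hosts did not overlap in DTC or in macro-mets.

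Socs1 was 3.80-fold higher in BALB/c DTC than in NSG DTC (log2 fold change 1.92 ± 0.22 SE, adjusted p = 1.89e-07) and 1.92-fold higher in BALB/c macro-mets than in NSG macro-mets (0.94 ± 0.22, adjusted p = 0.0124). In tumours the hosts overlapped (0.09 ± 0.22, 95% interval -0.34 to 0.51, adjusted p = 0.81). The macro-met difference was not called by limma-voom. Socs1 rose in BALB/c DTC relative to BALB/c tumours (0.99 ± 0.22, adjusted p = 0.000596) and fell in NSG DTC relative to NSG tumours (-0.85 ± 0.22, adjusted p = 0.00457), a difference of 1.84 ± 0.31 between the hosts (adjusted p = 4.03e-05).

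Lung epithelium markers were higher in DTC and macro-mets than in tumours and highest in BALB/c DTC, as given above. Without the 2 lung-rich libraries, BALB/c DTC against NSG DTC gave 1.08 for Irf1, 2.08 for Socs1, 0.96 for Stat2 and -1.96 for Jak2, and all 4 kept their calls. With the leukocyte marker level as a covariate they were 0.86, 1.86, 0.89 and -1.99, all still called. Without the lung-rich libraries, BALB/c DTC against BALB/c tumours gave 0.93 for Irf1 and 1.11 for Socs1, both still called. With the lung marker level of each library as a covariate, the DTC against tumour changes of Irf1 and Socs1 were 0.75 and 0.78 in BALB/c (adjusted p = 0.151 and 0.202) and -0.83 and -1.003 in NSG (adjusted p = 0.161 and 0.141). All 4 missed the threshold, while the differences between hosts in that change were 1.57 and 1.78 and kept their calls. The covariate was the mean log2 CPM of 8 lung epithelium markers and 6 endothelium markers. It was -2.98 to -2.02 in NSG tumours and 1.34 to 1.83 in NSG DTC. In BALB/c it was -3.23 to -1.99 in tumours and 1.61 to 6.65 in DTC. Tumour and DTC ranges do not overlap in either host, so the fit cannot tell lung RNA apart from stage in NSG or in BALB/c.

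Each comparison between stages held calls among the 9 genes, and each also held calls for more than 1 in 4 of all tested genes. In BALB/c DTC against BALB/c tumours 7 of the 9 passed, beside 41.4% of all genes, and in NSG DTC against NSG tumours 3 passed (Jak2, Irf1 and Socs1), beside 25.5%. The BALB/c count was 3 with only the compared groups or the lung marker covariate, 4 on leaving out either BALB/c tumour replicate 5 or the gene-poor libraries, and the NSG count was 0 with that covariate. With the covariate, 445 of all 17774 genes passed in the NSG comparison, against 4538 without it. In the BALB/c comparison 5534 passed with it, against 7357 without it. In BALB/c macro-mets against BALB/c DTC 3 passed, beside 30.8%, and in NSG macro-mets against NSG DTC 5 passed, beside 43.7%. In macro-mets against tumours 4 passed in BALB/c, beside 37.8%, and 5 passed in NSG, beside 30.5%. The change from tumours to DTC differed between the hosts for 5 of the 9 genes, beside 33.4%, and that from DTC to macro-mets also for 5, beside 28.1%.

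Jak2, Stat2, Irf1 and Socs1 each had their lowest group mean of each host in macro-mets. Jak2 fell in NSG macro-mets relative to NSG DTC by 3.30 on the log2 scale (-3.30 ± 0.38 SE, adjusted p = 6.79e-08), with no overlap. Under the alternatives this fall ran from -3.51 to -2.55 and stayed called. The GC correlation described above was -0.613 to -0.328 in NSG DTC, against 0.197 to 0.414 in NSG macro-mets. Jak2 rose in NSG DTC relative to NSG tumours (1.83 ± 0.36, adjusted p = 0.000417) and fell in BALB/c DTC relative to BALB/c tumours (-1.17 ± 0.35, adjusted p = 0.00895). With the lung marker covariate the NSG rise was 0.91 and not called, and the BALB/c fall was -2.50 and called. With these 2 groups alone in the fit the BALB/c fall was -1.17 and missed the threshold (adjusted p = 0.056). Jak1 fell in BALB/c DTC relative to BALB/c tumours (-0.51 ± 0.12, adjusted p = 0.00135, and -1.005 with the lung marker covariate) and in NSG macro-mets relative to NSG DTC (-0.48 ± 0.12, adjusted p = 0.0019).

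Socs1 fell in BALB/c macro-mets relative to BALB/c DTC (log2 fold change -1.81 ± 0.22 SE, adjusted p = 3.01e-07) and in NSG macro-mets relative to NSG DTC (-0.83 ± 0.22, adjusted p = 0.00276), with no overlap in either host. Irf1 fell in BALB/c macro-mets relative to BALB/c DTC (-1.17 ± 0.19, adjusted p = 2.48e-05), and the NSG change was -0.32 ± 0.19 (adjusted p = 0.175). The NSG change was called as a fall on either TPM scale, with GC and length offsets, and without NSG macro-met replicate 3. The falls differed between the hosts by -0.98 ± 0.31 for Socs1 (adjusted p = 0.0178) and -0.85 ± 0.27 for Irf1 (adjusted p = 0.0181). Both of these host differences were lost on the TPM scale (-0.67 and -0.50) and with GC and length offsets (-0.42 and -0.58), that of Socs1 also without BALB/c DTC replicate 4 and that of Irf1 without NSG macro-met replicate 3.

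In macro-mets against tumours, Jak2 and Socs1 fell in each host. Jak2 fell by 1.60 on the log2 scale in BALB/c (-1.60 ± 0.36 SE, adjusted p = 0.000902) and by 1.47 in NSG (-1.47 ± 0.36, adjusted p = 0.00244). Socs1 fell in BALB/c (-0.82 ± 0.22, adjusted p = 0.00398) and in NSG (-1.68 ± 0.23, adjusted p = 2e-06), with no overlap in either host. Irf1 fell in NSG (-1.03 ± 0.19, adjusted p = 0.00017), through overlap of NSG macro-met replicate 3 with the lowest tumour, and its BALB/c change was -0.27 ± 0.19 (adjusted p = 0.279). Whether these changes differ between the hosts was not tested.

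Among receptor genes, Ifngr1 and Ifngr2 passed in none of the 6 comparisons between stages of a host, whereas Ifnar2 rose in macro-mets relative to DTC in both hosts, as given above, and kept these calls under every alternative tried. In BALB/c DTC against BALB/c tumours Ifnar1 rose (log2 fold change 0.24 ± 0.09 SE, adjusted p = 0.0385) and Ifnar2 fell (-0.27 ± 0.11, adjusted p = 0.0404), calls that were lost under 5 and 6 of 12 alternatives and when single libraries such as BALB/c tumour replicate 5 were left out. In BALB/c macro-mets against BALB/c tumours Ifnar1 rose (0.34 ± 0.09, adjusted p = 0.00386), and in NSG macro-mets against NSG DTC it fell (-0.33 ± 0.09, adjusted p = 0.00387). In NSG macro-mets against NSG tumours Ifnar2 rose (0.44 ± 0.11, adjusted p = 0.0021) and Jak1 fell (-0.36 ± 0.12, adjusted p = 0.0241). With GC and length offsets the Ifnar1 rise in BALB/c macro-mets was 0.18 and the Ifnar2 rise in NSG macro-mets 0.24, and neither was called. The NSG fall of Jak1 was lost on the TPM scale and without the gene-poor libraries, NSG tumour replicate 4 or NSG macro-met replicate 1 or 4. The BALB/c change of Jak1 was -0.29 ± 0.12 and missed the threshold (adjusted p = 0.0626). It was called with DESeq2 or its size factors, with GC and length offsets, with either marker covariate, and without BALB/c tumour replicate 4.

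**Figure D4:**
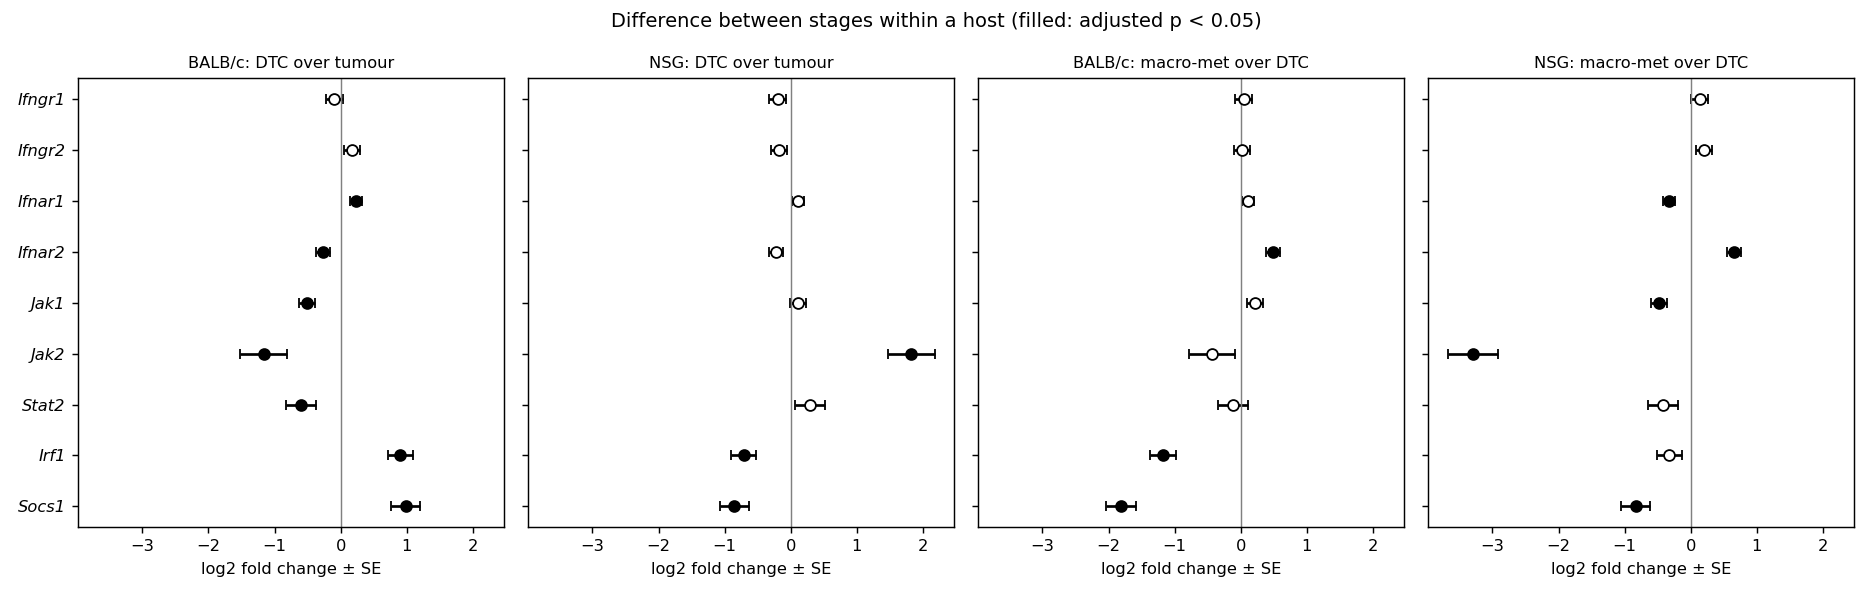
Log2 fold change between stages within each host (horizontal axis, whiskers of 1 SE) for the 9 genes, with BALB/c and NSG side by side and points filled where the adjusted p was under 0.05. In DTC over tumours Irf1 and Socs1 lie right of 0 in BALB/c (0.91 and 0.99) and left of it in NSG (-0.71 and -0.85), while Ifngr1 and Ifngr2 are unfilled in all 4 panels.

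By role, the 4 receptor genes had a median BALB/c over NSG log2 fold change of 0.12 in tumours, 0.20 in DTC and 0.10 in macro-mets, and the medians over all tested genes were 0.08, -0.01 and -0.01. The 3 signalling and feedback genes (Stat2, Irf1 and Socs1) had medians of 0.09, 1.02 and 0.94. In DTC, Stat2, Irf1 and Socs1 were each higher in BALB/c, as was Ifngr2, while Ifnar1, Jak1 and Jak2 were lower.

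Among 25 other pathway genes, all of them tested, 7 were higher and 0 lower in BALB/c tumours than in NSG tumours, where 23.6% of all genes passed, so the share of calls is near that of all genes. In DTC 11 were higher and 2 lower, beside 38.8% of all genes, and in macro-mets 5 were higher and 0 lower, beside 2.64%. Irf7, an amplifier of type I interferon production, was higher in BALB/c by 1.62, 1.08 and 1.52 on the log2 scale in tumours, DTC and macro-mets. Irf9, the partner of Stat2, was higher by 1.18 in tumours and 1.00 in macro-mets. Usp18, an inhibitor of signalling at Ifnar2, was higher by 1.68 in macro-mets. Pias2, a SUMO ligase that restrains STAT proteins, was lower in BALB/c DTC (-1.19).

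Between stages, calls among the 25 went in both directions. In DTC relative to tumours 2 rose and 5 fell in BALB/c, beside 41.4% of all genes called, and 3 rose and 2 fell in NSG, beside 25.5%, both shares below those of all genes. In macro-mets relative to DTC 5 rose and 5 fell in BALB/c, beside 30.8%, and 8 rose and 8 fell in NSG, beside 43.7%. Socs3, a feedback inhibitor of cytokine receptors that use gp130, rose at this step in BALB/c (log2 fold change 1.41 ± 0.23 SE, adjusted p = 2.56e-05) and in NSG (2.31 ± 0.24, adjusted p = 1.01e-08), where Socs1 fell. Stat3, the transcription factor downstream of gp130, rose in BALB/c (0.93 ± 0.14, adjusted p = 4.35e-06) and in NSG (0.98 ± 0.14, adjusted p = 7.91e-07).

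Known interferon gamma target genes differed between the hosts far more than their receptor genes. Of 20 such genes, 19 were higher and 0 lower in BALB/c at each of the 3 stages. Of all genes, 23.6% passed in tumours, 38.8% in DTC and 2.64% in macro-mets. The median log2 fold changes of the 20 were 3.52 in tumours, 2.66 in DTC and 2.33 in macro-mets. The gene that did not pass was Cxcl10 in tumours (0.29) and macro-mets (1.26) and Gbp7, whose reads can be shared with related Gbp genes, in DTC (0.84). Ciita, the master regulator of class II antigen presentation, averaged 34.8 CPM in BALB/c DTC and 0.986 CPM in NSG DTC (log2 fold change 5.15 ± 0.46 SE, adjusted p = 6.12e-09). Cd274, which encodes PD-L1, averaged 21.1 CPM in BALB/c DTC and 3.12 CPM in NSG DTC (2.75 ± 0.33, adjusted p = 3.29e-07). These named targets were chosen after their values were seen.

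Of 16 type I interferon target genes, 15 were higher and 0 lower in BALB/c tumours than in NSG tumours, 9 and 1 in DTC, and 14 and 0 in macro-mets. The shares of all genes that passed were 23.6%, 38.8% and 2.64%. The median log2 fold changes of the 16 were 1.63, 0.80 and 1.56, so that the smallest was in DTC, where Irf1 and Socs1 differed most between hosts. Ifih1, an RNA sensor, was the gene lower in BALB/c DTC, with 11.8 CPM in BALB/c DTC and 30.2 CPM in NSG DTC (log2 fold change -1.36 ± 0.40 SE, adjusted p = 0.0072). Within NSG, 8 of the 16 rose and 0 fell in DTC relative to tumours, beside 25.5% of all genes, while Irf1 and Socs1 fell there. In macro-mets relative to DTC 15 fell and 0 rose in NSG, beside 43.7% of all genes called. In BALB/c 11 fell and 0 rose, beside 30.8%.

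**Figure D5:**
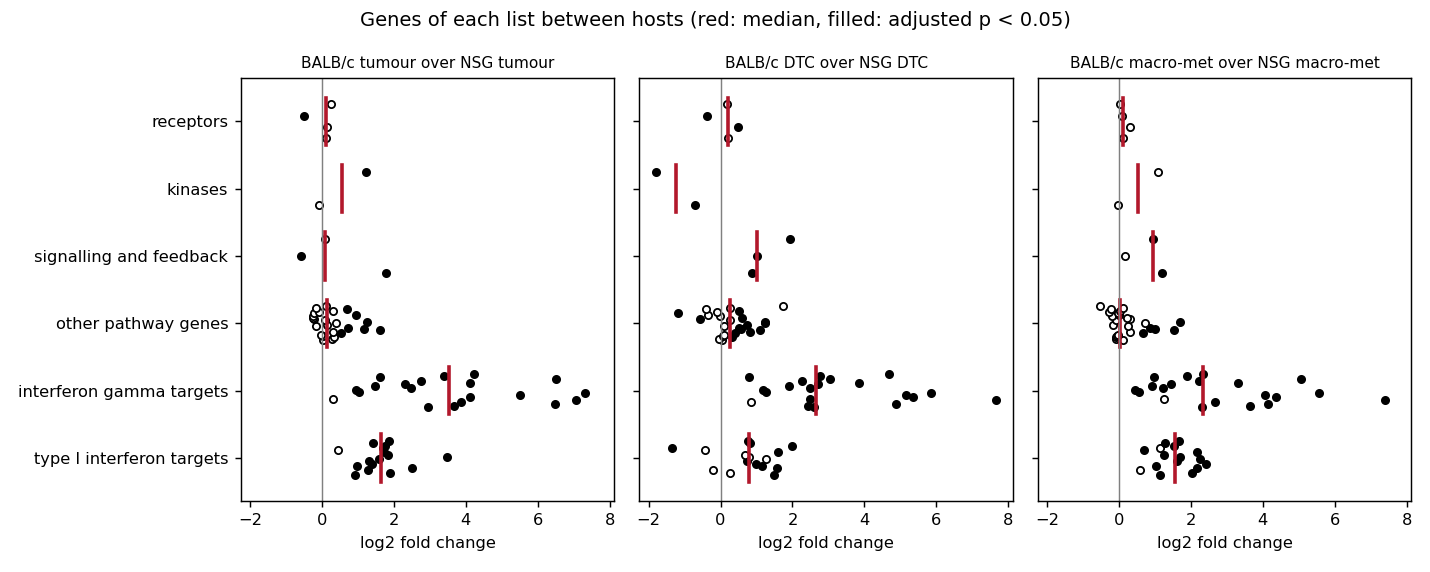
Log2 fold change of BALB/c over NSG (horizontal axis) for each gene of 6 lists, from receptors at the top to type I interferon targets at the bottom, with the list median in red and filled points where the adjusted p was under 0.05. Medians for receptors are 0.12, 0.20 and 0.10 and for interferon gamma targets 3.52, 2.66 and 2.33 in tumours, DTC and macro-mets.

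Transcripts of the ligands were near the limit of detection, with at most 68 reads of all 10 interferon genes together in any group. Of the 68, in BALB/c tumours, Ifnk, interferon kappa, had 42 and Ifne, interferon epsilon, had 24. Ifng, the interferon gamma gene, had 2 reads in the 5 tumour libraries of BALB/c mice, 6 in the DTC libraries and 11 in the macro-mets of that host, and 0 in the 3 NSG groups. A count of 0 over a group allows up to 3 reads, which is 0.0122 CPM in NSG tumours, 0.0117 CPM in NSG DTC and 0.0120 CPM in NSG macro-mets, for counting error only. Ifnb1, the interferon beta gene, had 14 reads in BALB/c DTC, with 0 in tumours and macro-mets of that host, against 4 in NSG tumours, 2 in NSG DTC and 1 in NSG macro-mets. Ifna1, Ifna2, Ifna4 and Ifna5 had 0 reads in all 30 libraries. Markers of NK cells summed to at most 0.872 CPM in any library. The 6 T cell markers summed to 0.718 to 3.71 CPM in BALB/c tumours, 5.75 to 8.10 CPM in BALB/c DTC and 1.32 to 3.48 CPM in BALB/c macro-mets, against 3.48 to 6.49 CPM in NSG tumours, 5.07 to 8.45 CPM in NSG DTC and 1.39 to 2.88 CPM in NSG macro-mets. Cd3d and Cd8a were at 0 in every NSG tumour library and Cd3d in every NSG DTC library. No T cell marker was at 0 throughout NSG macro-mets or a BALB/c group. NSG mice lack T cells, so these sums are no measure of T cells alone.

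Across the 30 libraries, Irf1 and Socs1 levels (log2 CPM) had a Pearson r of 0.83, and Stat2 had 0.58 with Socs1 and 0.22 with Irf1. Jak1 and Jak2 had 0.70. These describe libraries that share group, depth and base composition and carry no test. Among all tested genes averaging at least 1 on the log2 CPM scale, those most like Irf1 were Pdgfb (0.85), Socs1 (0.83), Nfkbie (0.83), Neurl3 (0.81) and Cxcl10 (0.80). Socs1 was most like Cxcl16 (0.90), Calr (0.87), Oas1a (0.86), Cish (0.86) and Sema7a (0.85). Stat2 was most like Gbp2b (0.94), Irf9 (0.94), Irgm2 (0.93) and Samhd1 (0.92). Cxcl10 and Oas1a also belong to the target lists above, and Irf9 and Cish to the 25 other pathway genes.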

How the data were processed

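Per the submitters' processing notes, the authors listed Trimmomatic 0.36, STAR 2.5.2b and the assembly GRCm38/mm10. The counting tool, strand setting, annotation and gene lengths are not given in the sources used here, so reads of overlapping or antisense genes may be shared. The authors deposited raw counts per gene and, separately, their own TPM values. The filterByExpr function of edgeR 4.0.16 (R 4.3.3) kept 17774 genes, which hold 99.969% of all counts. After TMM scaling, its robust quasi-likelihood test was run with a mean for each group and the spread shared by all 30 libraries (residual degrees of freedom 24, median coefficient of biological variation 0.269), and was checked on simulated data. Adjusted p-values are Benjamini-Hochberg values over all tested genes of a comparison, and those under 0.05 were called. The SE of that test is the size of the log2 fold change divided by the square root of its F value. The 95% intervals take this SE with a normal distribution, so they are slightly narrower than with a t distribution. Depth was 29832098 to 65621525 counts per library, and reads without molecular identifiers need not be separate molecules.

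TPM values were tested with limma 3.58.1 as log2(TPM + 1) and log2(TPM + 0.1), a scale on which fold changes of low genes are understated. Other alternatives were DESeq2 1.42.0 and its size factors, limma-voom, no filter, a fit of the compared groups alone, GC and length offsets from GENCODE M21, lung or leukocyte marker covariates, and fits without single, lung-rich or gene-poor libraries. A library was called gene-poor or lung-rich from its own values. Members, lists and tests were chosen with earlier results of these data known. All 9 members are named, other pathway genes up to the 3 of smallest adjusted p per comparison, and the 5 genes most like Irf1, Socs1 and Stat2, of which 1 is not reported here.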

Additional observations from a re-analysis of the deposited data

Results flagged for a closer look

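Among the 54 sets of 5 libraries examined, 1 held a library far from the others, where chance gives about 1 in 20. Stat2 in NSG macro-met replicate 4 stood at 20.1 CPM, below the other 4 NSG macro-mets at 26.2 to 28.2 CPM, and this is also 1 of the 4 libraries with fewer genes detected.

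The other results listed here are changes between stages that differed between BALB/c and NSG by the interaction term of the fit. From tumours to DTC the BALB/c minus NSG difference of the log2 change was 1.62 for Irf1, 1.84 for Socs1, -0.62 for Jak1, -3.00 for Jak2 and -0.89 for Stat2. From DTC to macro-mets it was -0.85 for Irf1, -0.98 for Socs1, 0.44 for Ifnar1, 0.70 for Jak1 and 2.87 for Jak2. The same BALB/c DTC and NSG DTC libraries enter both steps.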

How the results depend on the processing

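Of 99 log2 fold changes (9 genes in 11 comparisons), 50 were called, and 28 of these kept their call under every alternative. The other 22 lost it in at least 1, and 16 of the 49 that were not called passed in at least 1. No called value changed its sign. Of all tested genes, 2.64% to 43.7% were called in each single comparison. How many of those calls were kept under every alternative was not counted. The number of the 9 genes called changed by more than 1.5 times in 4 comparisons. BALB/c macro-mets against NSG macro-mets gave 1 with limma-voom in place of 2, where 590 of all genes passed in place of 470. BALB/c DTC against BALB/c tumours gave 3 with only the compared groups, 3 with the lung marker covariate and 4 without the 4 gene-poor libraries, in place of 7, and 4 to 7 when single libraries were left out. Calls over all genes in that comparison also fell, from 7357 in the main fit. They were 5143 with only the compared groups, 5534 with the covariate and 6551 without the gene-poor libraries. NSG DTC against NSG tumours gave 0 with the lung marker covariate in place of 3. The host difference in macro-mets against DTC gave 3 on either TPM scale and 2 with GC and length offsets in place of 5. The causes were not tested.

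The count of called genes among all tested also moved by more than 1.5 times in some settings. In BALB/c against NSG macro-mets it was 470, against 924 with DESeq2 and 828 with only the compared groups. In NSG DTC against NSG tumours it was 4538, against 445 with the lung marker covariate, in NSG macro-mets against NSG tumours 5415, against 3429 without the gene-poor libraries, and in the host difference in macro-mets against DTC 5002, against 2612 with offsets. The log2(TPM + 0.1) scale moved the median of all genes in NSG DTC against NSG tumours to 0.28, against 0.06, and the calls to 4969 higher and 792 lower, against 2840 and 1698. In BALB/c DTC against NSG DTC the calls moved to 1568 higher and 5653 lower, against 3048 and 3851. No paired analysis was possible because the labels give no replicate numbers shared between groups.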
